A study of Mus musculus with 2 samples.

Results

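Prox1, Mmrn1 and Lyve1 are the 3 genes followed here, out of 479 genes on a Xenium panel that was read in 1 RKP section and 1 EKP section of mouse tumour tissue. They were taken by symbol, and all 3 were found in both count matrices, as Prox1 (ENSMUSG00000010175, chromosome 1), Mmrn1 (ENSMUSG00000054641, chromosome 6) and Lyve1 (ENSMUSG00000030787, chromosome 7). Xenium In Situ detects RNA molecules one by one by imaging the tissue and gives each to the outline of a cell, called a barcode below. The RKP tumour grew from the cultured cell line labelled RKP and the EKP tumour from the one labelled EKP. Each line was injected with Matrigel under the skin of C57BL/6 mice aged 5 weeks, and tumours were taken once volumes were similar between the groups. Both tumours lay in 1 formalin-fixed, paraffin-embedded block on 1 Xenium slide. The tissue is labelled diffuse gastric cancer, and C57BL/6 is a strain with an intact immune system. What the letters of either line's name stand for, which of the lines has the mutant RHOA named in the series' title, and how many animals lie behind a section are not in the labels. With 1 section per line there are no replicates. Every interval below is a 95% interval that covers counting error only, and no difference between the sections was tested.

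Lymphatic vessels drain fluid and immune cells from tissue. Prox1 is the transcription factor that sets and keeps lymphatic endothelial identity, and Mmrn1 encodes multimerin 1, a large secreted glycoprotein of endothelium and platelets that lymphatic endothelium carries at high level. Lyve1 encodes a receptor for hyaluronan on the walls of initial lymphatics, but a class of tissue macrophages near vessels carries it too. Such macrophages also carry Folr2 (a folate receptor) and Mrc1 (the mannose receptor), and Cd209a encodes a lectin of dendritic cells and some macrophages. Lyve1 was therefore read together with the genes found beside it in the same barcode.

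The RKP section held 255744 barcodes with 44294494 gene counts, against 261111 barcodes with 31597828 gene counts in the EKP section. The median barcode had 154 gene counts in RKP and 84 in EKP, and 3.00% of RKP barcodes held fewer than 20 gene counts, against 26.6% of EKP barcodes. At 20 or more counts, 248060 RKP barcodes (median 158 counts) and 191692 EKP barcodes (median 139 counts) were kept for co-detection. The 20 negative control probes, which match no mouse RNA, summed to 15.7 counts per 1000000 gene counts (CPM) in RKP and 50.1 CPM in EKP. The 2 sections shared 19 barcode names.

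Summed over whole sections, Prox1 and Mmrn1 stood higher in RKP and Lyve1 lower. Prox1 had 4399 counts in RKP, or 99.3 CPM (96.4 to 102), against 1794 counts in EKP, or 56.8 CPM (54.2 to 59.5), a ratio of 1.75 (1.66 to 1.85). Mmrn1 had 10754 counts in RKP, or 243 CPM (238 to 247), against 3883 counts in EKP, or 123 CPM (119 to 127), a ratio of 1.98 (1.90 to 2.05). Lyve1 had 9207 counts in RKP, or 208 CPM (204 to 212), against 8872 counts in EKP, or 281 CPM (275 to 287), a ratio of 0.740 (0.719 to 0.762). None of the 3 genes reached a 2-fold difference, with Mmrn1 just inside that limit. Of 477 genes above the control level, 39 (8.18%) stood at least 2-fold higher in RKP and 166 (34.8%) at least 2-fold higher in EKP. The median gene had a log2 ratio of -0.43, so the log2 ratio of Lyve1, -0.43, was that of the panel at large, while those of Prox1 (0.81) and Mmrn1 (0.98) lay above it. Counted per cell instead of per gene count, the log2 ratios were 1.32 for Prox1, 1.50 for Mmrn1 and 0.083 for Lyve1, and in barcodes of 80 or more counts 2.31, 2.66 and -0.19. In such sums, fewer cells of a type and less RNA per cell cannot be told apart.

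The panel holds 4 other genes of the list kept for lymphatic endothelium, and they did not run one way. Tbx1, a transcription factor that lymphatic vessel growth needs in mice, had 99.0 CPM in RKP and 34.7 CPM in EKP, a log2 ratio of 1.51. Cldn11, a tight junction claudin, had 16.8 CPM in RKP and 96.0 CPM in EKP, a log2 ratio of -2.51. In EKP 38.5% of Cldn11 counts lay in barcodes under 20 counts, against 2.15% in RKP, and in barcodes of 80 or more counts its log2 ratio was -0.37 and that of Tbx1 3.10. Fxyd6 (a regulator of the sodium pump) and Nts (neurotensin) had log2 ratios of 0.14 for Fxyd6 and -0.20 for Nts. One of the 4 thus stood at least 2-fold higher in RKP and 1, Cldn11, at least 2-fold higher in EKP, the second not at 80 or more counts. The panel holds 9 endothelial genes, of which 0 passed 2-fold toward RKP and 2 toward EKP, and their median log2 ratio was -0.70. Of all 477 genes, 8.18% passed toward RKP and 34.8% toward EKP, with a median log2 ratio of -0.43.

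Promoter windows from RefSeq's table for GRCm38.p6 were at hand for Mmrn1 and, at 2 start sites, for Prox1. No window was at hand for Lyve1, which was therefore not searched. The windows of Mmrn1 and Prox1 are shown because Mmrn1 was found in most RKP barcodes that held Prox1. Each window runs from 250 bases before a start to 50 after it, 5′ to 3′ on the gene's strand. The Mmrn1 window is chr6:60944067-60944366 on the plus strand, and capitals mark matches to the 2 searched motifs it holds. The Prox1 windows, both on the minus strand, are chr1:190170778-190171077 for the upstream start and chr1:190169466-190169765 for the downstream start, and they hold no match and so no capitals.
Mmrn1: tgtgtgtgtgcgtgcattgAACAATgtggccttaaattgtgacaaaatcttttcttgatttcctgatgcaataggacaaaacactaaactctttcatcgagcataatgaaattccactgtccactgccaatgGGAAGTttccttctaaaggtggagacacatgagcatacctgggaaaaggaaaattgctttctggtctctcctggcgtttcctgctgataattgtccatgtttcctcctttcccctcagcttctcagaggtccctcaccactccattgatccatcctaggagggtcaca
Prox1 upstream start: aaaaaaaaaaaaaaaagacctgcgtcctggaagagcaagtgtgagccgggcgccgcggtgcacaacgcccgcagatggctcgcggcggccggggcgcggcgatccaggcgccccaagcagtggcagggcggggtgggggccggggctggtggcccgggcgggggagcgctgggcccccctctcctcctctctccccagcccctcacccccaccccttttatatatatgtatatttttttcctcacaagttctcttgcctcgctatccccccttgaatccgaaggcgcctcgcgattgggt
Prox1 downstream start: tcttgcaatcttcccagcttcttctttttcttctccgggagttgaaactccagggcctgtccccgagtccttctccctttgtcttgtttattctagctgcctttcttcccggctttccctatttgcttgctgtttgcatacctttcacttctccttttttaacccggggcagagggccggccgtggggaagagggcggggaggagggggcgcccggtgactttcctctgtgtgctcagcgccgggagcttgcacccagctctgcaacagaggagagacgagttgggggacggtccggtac
Both strands were searched for 4 short motifs of factor families known in endothelium. The SOX motif AACAAT is in the Mmrn1 window at position -231, and 10.6% of 32544 mouse promoter windows of this length hold it. The ETS motif GGAAGT is there at position -118, without overlap, and 23.7% of those windows hold it. Without a match in the 3 windows were the nuclear receptor motif AGGTCA, held by 16.2% of all windows, and the GATA motif AGATAA, held by 11.2%. A match describes letters in the window and was not set against binding.

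The levels of Prox1 and Mmrn1 moved with the depth of the barcode, and far more so in EKP. In RKP, Prox1 stood at 243, 214, 238, 193 and 61.7 CPM in barcodes of under 20, 20 to 39, 40 to 79, 80 to 159 and 160 or more gene counts. In EKP the same bins held Prox1 at 936, 542, 113, 29.3 and 15.6 CPM. The summed control probes ran through 99.4, 54.2, 31.5, 17.4 and 13.5 CPM in RKP and through 751, 392, 98.0, 27.5 and 18.9 CPM in EKP. Prox1 thus stood above the 20 summed control probes in every bin of RKP. In EKP it ran near them in every bin, somewhat above them in the shallower bins and below them at 160 or more counts.

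Mmrn1 fell off with depth in EKP in the same way, with 1975 CPM in barcodes under 20 counts and 28.4 CPM at 160 or more, against 508 and 150.4 CPM in RKP. Lyve1 kept a higher level in deep EKP barcodes, with 501 CPM at 80 to 159 counts and 145 CPM at 160 or more, against 365 and 141 CPM in the same bins of RKP. Barcodes under 20 counts held 0.500% of Prox1 counts in RKP and 35.2% in EKP, and for Mmrn1 0.428% in RKP and 34.3% in EKP. For Lyve1 these shares were 0.532% in RKP and 9.20% in EKP, beside 1.29% in RKP and 32.0% in EKP for the control probes and 0.303% in RKP and 8.43% in EKP for the median gene. In EKP, then, Prox1 and Mmrn1 counts lay over shallow barcodes as the control probes did, and the share of Lyve1 lay near that of the median gene. Of all gene counts, 0.204% in RKP and 2.13% in EKP lay in barcodes under 20 counts, and Lyve1 stood above these shares. Its level in such barcodes was 541 CPM in RKP and 1211 CPM in EKP. How far background counts make up the EKP sums of the 3 genes was not tested. Whole-section sums of Prox1 were 27.2 times the highest single control probe in RKP and 5.77 times in EKP, and those of Mmrn1 66.4 times in RKP and 12.5 times in EKP.

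**Figure D1:**
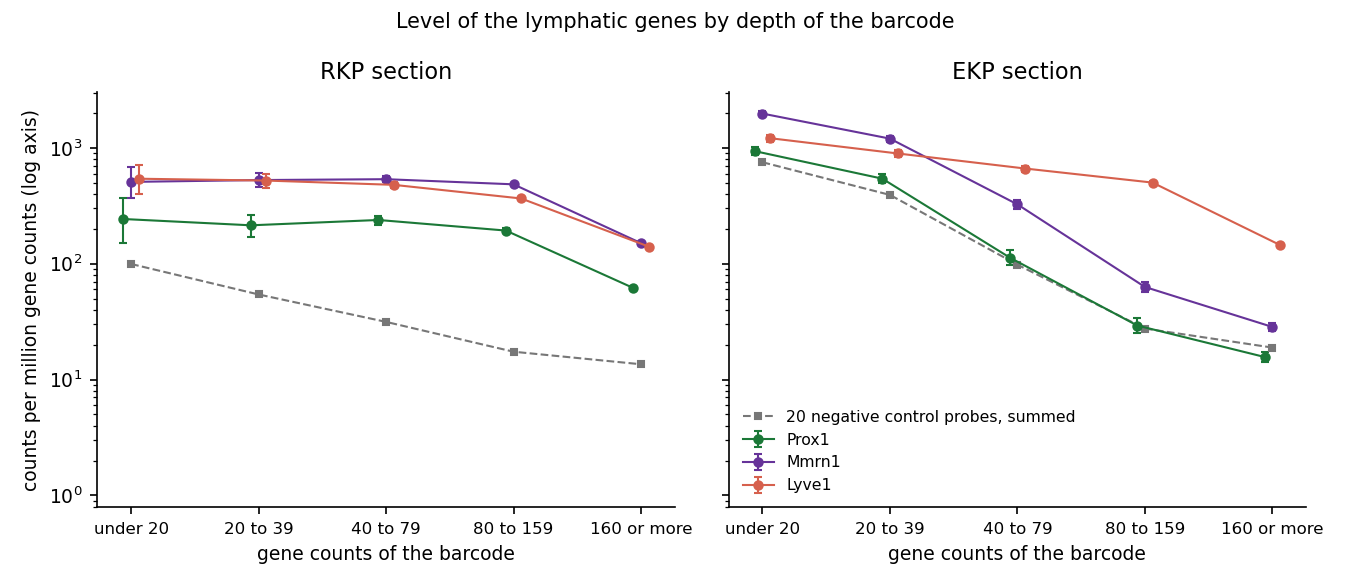
Level of Prox1, Mmrn1 and Lyve1 (CPM, log axis) in barcodes binned by their gene counts, with the RKP section left and the EKP section right; points are the section's value with exact Poisson 95% intervals, and the dashed grey line is the sum of 20 negative control probes. Prox1 stays above the grey line in every RKP bin and runs near it in every EKP bin. In EKP it is at 936 against 751 CPM under 20 counts and at 15.6 against 18.9 CPM at 160 or more. Lyve1 stays above the grey line in both sections.

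Among barcodes of 20 or more counts, Prox1 was found in 0.928% of RKP and 0.569% of EKP barcodes, Mmrn1 in 1.41% of RKP and 1.14% of EKP barcodes, and Lyve1 in 1.98% of RKP and 2.82% of EKP barcodes. A barcode that held Prox1 carried 1.90 Prox1 counts on average in RKP and 1.07 in EKP, and 60.3% of RKP and 96.0% of EKP such barcodes had a single count. Mmrn1 was alike, with a mean of 3.05 counts in RKP and 1.16 in EKP, and at most 27 counts in 1 RKP barcode and 23 in 1 EKP barcode. Barcodes with 5 or more Mmrn1 counts numbered 762 in RKP and 24 in EKP. Lyve1 was less unequal, with a mean of 1.87 counts in RKP and 1.49 in EKP. When each barcode of 40 or more counts was thinned to 40, Prox1 was found in 0.444% of RKP and 0.155% of EKP barcodes, Mmrn1 in 0.763% of RKP and 0.355% of EKP, and Lyve1 in 0.795% of RKP and 1.24% of EKP. The thinning left out 8.07% of RKP and 38.0% of EKP barcodes. In barcodes that passed the gate for neutrophils and no other, which should lack all 3 genes, Prox1 was found in 0.203% in RKP and 0.504% in EKP, Mmrn1 in 0.338% in RKP and 1.22% in EKP, and Lyve1 in 0.383% in RKP and 1.09% in EKP (median depths 46 in RKP and 40 in EKP). The EKP shares of Prox1 and Mmrn1 over all barcodes of 20 or more counts lay near these values. The neutrophil barcodes are shallower than the kept EKP barcodes (median 139 counts), so they are not a background of matched depth. The EKP shares of Prox1 and Mmrn1 are therefore not read as expression by themselves, and how far background makes them up was not tested.

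Prox1 and Mmrn1 shared barcodes in RKP far more often than in EKP. Of 2301 RKP barcodes with Prox1, 1392 also held Mmrn1, or 60.5% (58.5 to 62.5), against 0.862% of RKP barcodes without Prox1. Of 1090 EKP barcodes with Prox1, 68 also held Mmrn1, or 6.24% (4.88 to 7.84), against 1.11% without Prox1. The EKP barcodes with Prox1 had a median depth of 57 counts, against 139 without it, so these shares are not matched for depth. Of the 68 EKP pairs, 26 lay in barcodes of 20 to 39 counts and 18 in those of 40 to 79. In the other direction, 39.7% of 3510 RKP barcodes with Mmrn1 and 3.10% of 2192 EKP barcodes with Mmrn1 held Prox1. Lyve1 lay in 41.8% of Prox1 barcodes in RKP and 6.88% in EKP, and in 40.7% of Mmrn1 barcodes in RKP and 6.52% in EKP. All 3 genes met in 868 RKP barcodes (0.350%) and 25 EKP barcodes (0.0130%), and at least 2 of them in 2047 RKP barcodes (0.825%) and 236 EKP barcodes (0.123%).

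Barcodes with more than 1 Prox1 count showed the pairing in both sections. Of 914 RKP barcodes with 2 or more Prox1 counts, 834 (91.2%) held Mmrn1, and of 44 such EKP barcodes 19 did (43.2%, 28.3 to 59.0). Lyve1 was in 62.1% of those RKP barcodes and in 20 of the 44 in EKP, or 45.5%. Tbx1 was in 62.1% in RKP and in 8 of the 44 in EKP, or 18.2%. In EKP, then, a small set of barcodes holds Prox1 with its partner genes among a larger number with a single Prox1 count. After thinning to 40 counts, Mmrn1 lay in 52.5% of Prox1 barcodes in RKP and 8.76% in EKP.

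**Figure D2:**
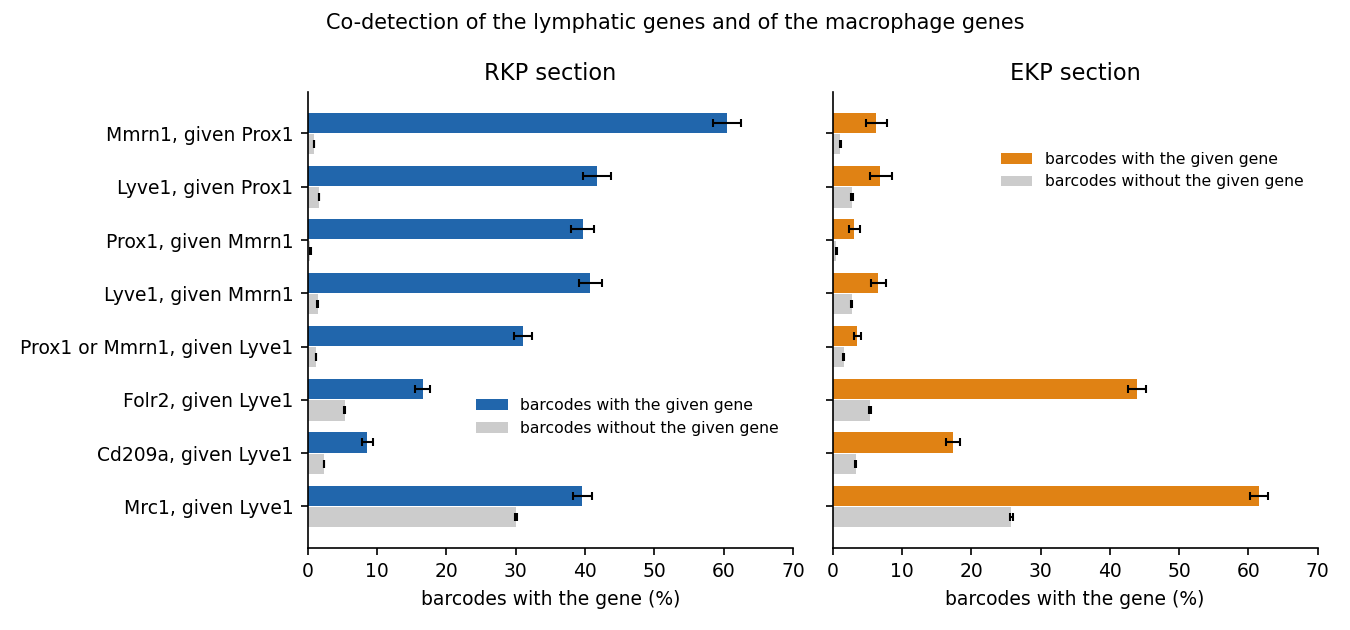
Percent of barcodes (20 or more gene counts) that hold a gene, in barcodes with the given gene (coloured) and without it (grey), RKP left and EKP right; whiskers are exact binomial 95% intervals. The pairs among Prox1, Mmrn1 and Lyve1 are high in RKP (60.5% for Mmrn1 given Prox1) and low in EKP (6.24%), and Folr2 given Lyve1 runs the other way (16.6% in RKP, 43.9% in EKP).

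The barcodes that held both Prox1 and Mmrn1 carried vessel genes in RKP. Of these, 91.8% passed the endothelial gate (at least 2 different genes of the 9 on the endothelial list, none of which is Prox1, Mmrn1 or Lyve1), against 39.7% of the 68 in EKP, and 12.7% of RKP and 16.7% of EKP barcodes with none of the 3 genes. Tie1 (a receptor of the angiopoietin pathway) was found in 76.9% of the RKP barcodes with both genes, Pecam1 (an endothelial junction protein) in 70.3% and Kdr (VEGF receptor 2) in 68.5%. Tbx1 was found in 55.0% of them, Nts in 41.5% and Fxyd6 in 73.5%. Prox1 alone, without Mmrn1 and Lyve1, met the endothelial gate in 290 of 816 RKP barcodes (32.3 to 38.9%) and 194 of 972 EKP barcodes (17.5 to 22.6%). These lone Prox1 barcodes had a median depth of 156 counts in RKP and 59 in EKP, beside 158 in RKP and 141 in EKP for barcodes with none of the 3 genes. At 80 or more counts the gate took 38.4% of lone Prox1 barcodes in RKP (34.6 to 42.2), against 13.9% of those with none, and 39.7% in EKP (35.1 to 44.5), against 20.9% of those with none. The median depths there were 179 against 185 counts in RKP and 211 against 192 in EKP. In both sections, deep barcodes with Prox1 alone thus passed the endothelial gate more often than those with none of the 3 genes. The data bear out the lymphatic label for the RKP barcodes with Prox1 and Mmrn1 together.

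Among RKP barcodes with Prox1 set against those without, all 4 other lymphatic genes stood at least 2-fold higher in level: Tbx1 72.9-fold, Nts 50.5-fold, Cldn11 29.6-fold and Fxyd6 5.82-fold. Of all 442 RKP genes in that comparison, 19% passed 2-fold. In EKP, Tbx1 (13-fold, 37 counts), Cldn11 (5.73-fold, 43 counts) and Nts (3.84-fold, 59 counts) passed and Fxyd6 did not (0.992), against 44.7% of 474 genes. With so many EKP genes past 2-fold, the EKP count of 3 of 4 is not a result about these genes. For Mmrn1, 4 of 4 passed in RKP (14.9% of all genes) and 3 of 4 in EKP (50.6%). For Lyve1, 4 of 4 passed in RKP (12.9%) and 2 of 4 in EKP (15.8%).

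Lyve1 was found beside the lymphatic genes, beside the macrophage genes or with neither, and the balance differed between the sections. Of 4909 RKP barcodes with Lyve1, 1523 also held Prox1 or Mmrn1, or 31.0% (29.7 to 32.3), against 1.19% of barcodes without Lyve1. Of 5415 EKP barcodes with Lyve1, 193 did, or 3.56% (3.09 to 4.09), against 1.62% without. Folr2, Mrc1 or Cd209a was found beside Lyve1 in 2099 RKP barcodes, or 42.8% (41.4 to 44.2), against 32.5% without Lyve1, and in 3580 EKP barcodes, or 66.1% (64.8 to 67.4), against 29.3% without. Mrc1, an abundant gene, makes up most of the share found without Lyve1, at 30.1% in RKP and 25.8% in EKP. Folr2 separated more sharply, with 16.6% of Lyve1 barcodes against 5.30% of the others in RKP, and 43.9% against 5.42% in EKP. Cd209a lay in 8.60% of Lyve1 barcodes against 2.33% of the others in RKP, and in 17.4% against 3.36% in EKP. Any of the 3 macrophage genes lay in 33.8% of RKP Prox1 barcodes (32.7% without Prox1) and 21.2% of EKP Prox1 barcodes (30.4% without). For Mmrn1 these shares were 35.3% in RKP (33.7 to 36.9), against 32.7% without Mmrn1, and 20.8% in EKP, against 30.5% without. Cd209a by itself was found in 3.16% of RKP Mmrn1 barcodes (2.61 to 3.80), against 2.44% without, and in 5.98% of EKP Mmrn1 barcodes (5.02 to 7.05), against 3.74% without.

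Put into 4 exclusive classes, 949 RKP Lyve1 barcodes (19.3%) held Prox1 or Mmrn1 only, 1525 (31.1%) a macrophage gene only, 574 (11.7%) both kinds and 1861 (37.9%) none of the 5 genes. In EKP these classes held 122 (2.25%), 3509 (64.8%), 71 (1.31%) and 1713 (31.6%). Counted by molecules, the lymphatic-only class held 33.2% of Lyve1 counts in RKP and 4.06% in EKP, and the macrophage-only class 21.1% in RKP and 70.4% in EKP. A barcode of the lymphatic-only class had 3.20 Lyve1 counts on average in RKP and 2.68 in EKP, and one of the macrophage-only class 1.27 in RKP and 1.62 in EKP. The class with none of the 5 genes was the largest in RKP. Of it, the epithelial gate took 75.0% in RKP and 41.9% in EKP, beside 62.1% in RKP and 55.9% in EKP of barcodes with none of the 3 members. The endothelial gate took 19.3% of that class in RKP and 40.4% in EKP, and the macrophage gate 18.6% in RKP and 13.4% in EKP. In the class with both kinds, Mrc1 was in 90.9% of barcodes in RKP and 83.1% in EKP, and Folr2 in 15.7% in RKP and 36.6% in EKP. Over all barcodes of 20 or more counts, Mrc1 also led, with 30.3% in RKP and 26.8% in EKP. Folr2 was in 5.52% of them in RKP and 6.51% in EKP, so the lead of Mrc1 is not particular to this class. Lymphatic endothelium is also known to carry Mrc1, and whether it does so here was not tested. Among barcodes with 2 or more Lyve1 counts, 72.1% of 1393 in RKP held Prox1 or Mmrn1, against 4.23% of 1417 in EKP, and 18.4% in RKP held Folr2, against 71.7% in EKP.

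**Figure D3:**
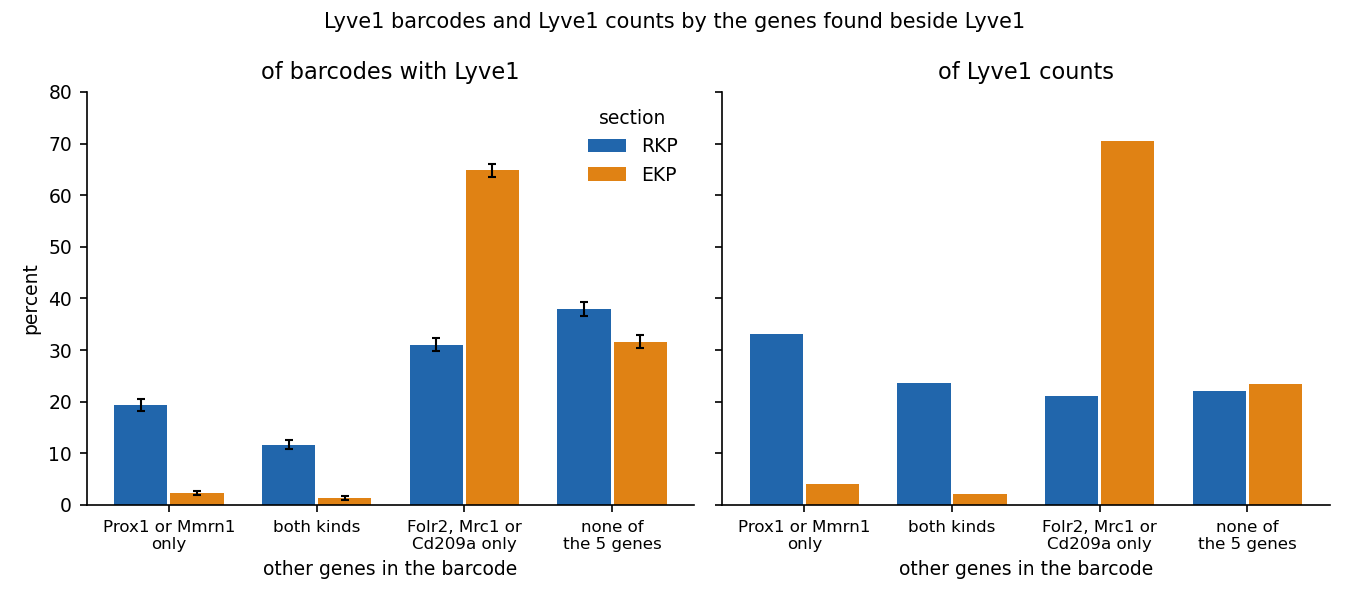
Percent of Lyve1 barcodes (left, exact binomial 95% intervals) and of Lyve1 counts (right) in 4 exclusive classes by the other genes in the barcode, RKP in blue beside EKP in orange. The class with Folr2, Mrc1 or Cd209a only holds 64.8% of EKP Lyve1 barcodes and 70.4% of EKP Lyve1 counts, against 31.1% and 21.1% in RKP.

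A gate for macrophages asked for at least 2 of the 7 macrophage genes on the panel, leaving out Folr2, Mrc1 and Cd209a. It took 68.0% of the macrophage-only class in RKP and 75.0% in EKP, against 36.6% in RKP and 28.6% in EKP of barcodes with none of the 3 genes. The class was chosen for a macrophage gene and those barcodes were not, so the higher shares are no independent support for its name. Over Lyve1 barcodes of every class, 2 of the 7 genes stood at least 2-fold higher in level in RKP and 5 in EKP. Of all genes 12.9% did so in RKP and 15.8% in EKP. The median ratio of the 7 was 1.11 in RKP and 3.53 in EKP. Found in the macrophage-only class and in barcodes with a partner gene but none of the 3 members were Ms4a7, a membrane protein of macrophages (49.5% against 38.4% in RKP, 68.6% against 40.8% in EKP), and Cd68, a lysosomal protein (53.8% against 61.8% in RKP, 68.7% against 50.5% in EKP). Mpeg1, a pore-forming protein of phagocytes, had 62.9% against 74.2% in RKP and 62.5% against 60.8% in EKP. Cd86, a costimulatory ligand, had 17.4% against 28.8% in RKP and 16.4% against 20.9% in EKP. Retnla, a secreted protein of alternatively activated macrophages, had 22.1% against 3.00% in RKP and 10.7% against 2.81% in EKP. The scavenger receptor Marco had 0.590% against 0.238% in RKP and 0.826% against 0.342% in EKP, and Cd5l, a secreted macrophage protein, 0.525% against 0.109% in RKP and 4.56% against 0.752% in EKP. In RKP, then, Cd68, Mpeg1 and Cd86 were less frequent beside Lyve1 than in other barcodes with a partner gene. F13a1, the coagulation factor XIII A chain of resident macrophages, was named after its values were seen. Of barcodes with none of the 3 genes, which were not chosen for a partner gene, 14.2% held F13a1 in RKP and 22.8% in EKP. In the macrophage-only class 62.2% did in RKP and 89.0% in EKP. A fibroblast gate took 63.3% of the same barcodes in RKP and 74.0% in EKP, against 35.2% in RKP and 44.8% in EKP of barcodes with none of the 3 genes, and Dpt (dermatopontin, a matrix protein of fibroblasts) was found in 34.9% in RKP and 53.0% in EKP. Macrophage and fibroblast transcripts thus met in the same segmented outlines, and whether neighbouring cells add to this was not tested.

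Over gates, the levels followed the same lines. Barcodes that passed the endothelial gate alone held Prox1 at 1795 CPM in RKP and 85.1 CPM in EKP, and Lyve1 at 2815 CPM in RKP and 592 CPM in EKP. With 3 different genes asked of each gate, Prox1 stood at 1375 CPM in RKP and 67.3 CPM in EKP. Barcodes of the macrophage gate alone held Lyve1 at 128 CPM in RKP and 1354 CPM in EKP, and those of the fibroblast gate alone at 172 CPM in RKP and 340 CPM in EKP. Barcodes of the epithelial gate alone, where tumour cells fall, held Prox1 at 8.23 CPM in RKP and 26.5 CPM in EKP, and Lyve1 at 72.0 CPM in RKP and 49.3 CPM in EKP. In RKP, 83.0% of Prox1 counts and 86.3% of Mmrn1 counts lay in barcodes of the endothelial gate, against 24.4% and 25.6% in EKP. For Lyve1, that gate held 60.6% of counts in RKP and 20.2% in EKP, and the macrophage gate, which overlaps it, 30.4% in RKP and 61.1% in EKP. EKP barcodes of no gate, with a median depth of 29, held 28.5% of Prox1 counts.

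Within the endothelial gate, Lyve1 sorted in 2 ways. This split was made after the values were seen. Of 1862 RKP barcodes with Lyve1 in that gate, 1295 held Prox1 or Mmrn1, or 69.5% (67.4 to 71.6), against 70 of 1105 in EKP, or 6.33% (4.97 to 7.94). Those with none of Prox1, Mmrn1, Folr2, Mrc1 and Cd209a numbered 360 in RKP, or 19.3% (17.6 to 21.2), and 692 in EKP, or 62.6% (59.7 to 65.5). The rest, with a macrophage gene only, were 11.1% in RKP and 31.0% in EKP. Most endothelial Lyve1 barcodes of EKP therefore lacked a count of either lymphatic partner. The set with Prox1 or Mmrn1 was not cleared of macrophage genes. Of its barcodes, 494 of 1295 in RKP and 23 of 70 in EKP also held Folr2, Mrc1 or Cd209a.

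The vessel genes beside Lyve1 differed between these sets. In RKP, the set with Prox1 or Mmrn1 held Tbx1 at 6208 CPM, against 60.5 CPM in endothelial-gate barcodes with none of these genes, a ratio of 103 (88.7 to 119), and Nts at a ratio of 13.3 (12.4 to 14.3). The same set was low in Vwf, the von Willebrand factor of blood vessel endothelium, with 542 CPM against 8671 CPM, a ratio of 0.0625 (0.0510 to 0.0759). Sox17, a transcription factor of arterial endothelium, had 21 counts in it and a ratio of 0.0736 (0.0455 to 0.113), and Clec14a, an endothelial surface lectin, a ratio of 0.320 (0.249 to 0.406). Angpt2, a ligand of the Tie receptors, ran the other way with a ratio of 2.51 (2.38 to 2.64), and Pecam1 (1.20), Plvap (1.26), Kdr (1.48), Tie1 (1.49) and Eng (0.931) had smaller ratios. At 50 or more counts, 38 of 237 genes (16%) stood at least 2-fold higher in this set.

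In EKP, the 692 endothelial Lyve1 barcodes with none of the 5 genes were high in blood vessel genes, and Tbx1 and Fxyd6 did not follow. Vwf stood at 15605 CPM in them, against 8258 CPM in EKP endothelial-gate barcodes without any of these genes, a ratio of 1.89 (1.81 to 1.98). Sox17 had a ratio of 2.33 (2.14 to 2.53) and Angpt2 one of 2.68 (2.54 to 2.82), and all 9 endothelial genes lay between 1.56 and 2.68, beside a median of 0.808 over the 194 genes compared. Tbx1 had 4 counts and a ratio of 1.02 (0.273 to 2.67), Fxyd6 a ratio of 0.666 (0.561 to 0.785) and Nts one of 1.66 (1.32 to 2.06). Of those 194 genes, 5 (2.58%) stood at least 2-fold higher. The gate itself asks for 2 endothelial genes, in these barcodes and in those they were set against. The median depth was 178.5 counts in these barcodes and 166 in those they were set against, and whether depth sets these ratios was not tested.

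The matching 360 RKP barcodes lay closer to the rest of their gate, with the 9 endothelial genes at ratios of 1.09 to 1.37 and Tbx1 at 5.51 (3.49 to 8.36) on 25 counts. At 50 or more counts, the genes past 2-fold in them were Krt79 (3.31), Sbsn (3.00), Scin (2.25) and Trim29 (2.03). These were named after their values were seen, and none is on the endothelial or lymphatic list. Which cells these 360 barcodes outline was not tested. Nts had a ratio of 1.01 (0.728 to 1.38) there, Fxyd6 one of 0.641 (0.533 to 0.764) and Cldn11 one of 0.644 on 1 count. The 70 EKP barcodes with Prox1 or Mmrn1 held Tbx1 at a ratio of 63.1 (38.1 to 100.0) on 22 counts and Nts at 5.81 (3.81 to 8.48) on 27 counts. Fxyd6 stood at 1.09 (0.673 to 1.66) on 21 counts in them, and Cldn11 at 2.69 on 1 count. These 70 barcodes held Vwf at a ratio of 1.05 (0.853 to 1.27) and Sox17 at 1.06 (0.686 to 1.57). Angpt2 stood highest among their endothelial genes, at 4.40 (3.83 to 5.03). In these sets 2.19% of 183 RKP genes and 14.5% of 62 EKP genes passed 2-fold.

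**Figure D4:**
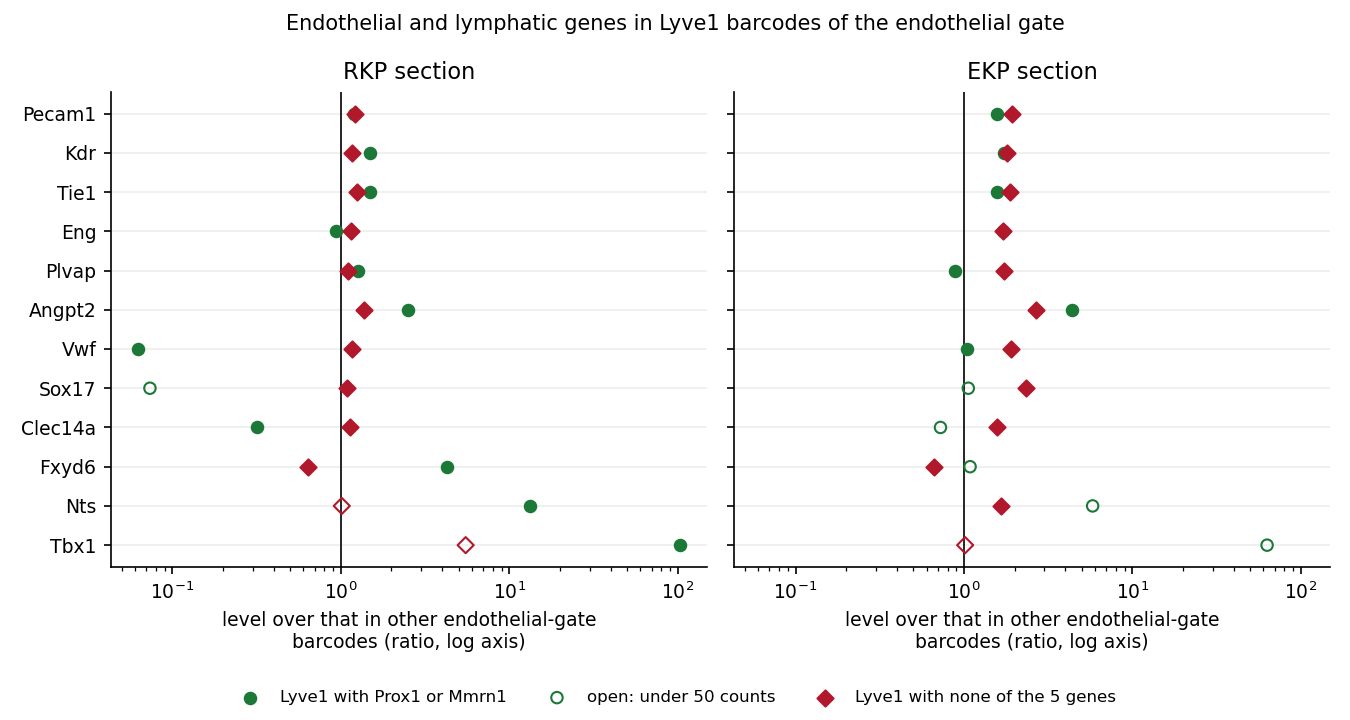
Level of endothelial and lymphatic genes in Lyve1 barcodes of the endothelial gate over their level in endothelial-gate barcodes with none of Lyve1, Prox1, Mmrn1, Folr2, Mrc1 and Cd209a (ratio, log axis), RKP left and EKP right; green circles are Lyve1 with Prox1 or Mmrn1, red diamonds Lyve1 with none of the 5 other genes, and open symbols rest on under 50 counts. In RKP the green circles stand far right for Tbx1 (103) and far left for Vwf (0.0625); in EKP the red diamonds of all 9 endothelial genes lie right of 1.

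The genes most like each of the 3 across barcodes were ranked by the smaller of its 2 ratios of level with and without the gene, over 248060 RKP and 191692 EKP barcodes. For Prox1 they were Mmrn1 (236-fold in RKP, 25.4-fold in EKP), Lyve1 (83.3 in RKP, 8.03 in EKP), Angpt2 (10.3 in RKP, 3.44 in EKP), Pecam1 (6.75 in RKP, 2.62 in EKP), Kdr (7.89 in RKP, 2.56 in EKP), Tie1 (8.93 in RKP, 2.40 in EKP), Eng (4.13 in RKP, 2.37 in EKP) and Plvap (6.62 in RKP, 2.15 in EKP). All but the first 2 are endothelial genes, which come from the list kept for that cell type. Tbx1, Nts and Cldn11 were too sparse in EKP to be ranked, with 37, 59 and 43 counts. Their ratios were 72.9, 50.5 and 29.6 in RKP and 13, 3.84 and 5.73 in EKP. The other lymphatic gene, Fxyd6, was ranked and had 5.82 in RKP and 0.992 in EKP. Among all genes, 19% passed 2-fold beside Prox1 in RKP and 44.7% in EKP.

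For Mmrn1 the 8 were Prox1 (263-fold in RKP, 15.8-fold in EKP), Gap43 (25.2 in RKP, 8.63 in EKP), Lyve1 (98.8 in RKP, 8.25 in EKP), Nts (43.5 in RKP, 5.33 in EKP), Kng2 (17.2 in RKP, 4.31 in EKP), Angpt2 (8.64 in RKP, 3.33 in EKP), Ttn (2.89 in RKP, 5.43 in EKP) and Car3 (2.62 in RKP, 2.84 in EKP). Gap43 encodes a membrane protein of growing axons, Ttn the giant spring protein of muscle and Car3 a carbonic anhydrase of muscle and fat. Among all genes, 14.9% passed 2-fold beside Mmrn1 in RKP and 50.6% in EKP.

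For Lyve1 they were Mmrn1 (79.2-fold in RKP, 7.15-fold in EKP), Retnla (5.94 in RKP, 5.88 in EKP), Prox1 (50.3 in RKP, 4.67 in EKP), Serpina3n (5.71 in RKP, 4.59 in EKP), Dpt (4.71 in RKP, 4.40 in EKP), Folr2 (4.05 in RKP, 17.4 in EKP), Cd209a (4.04 in RKP, 10.6 in EKP) and Car3 (3.83 in RKP, 4.37 in EKP). The lymphatic partners led for Lyve1 in RKP and Folr2 led in EKP, while the stromal and macrophage genes Retnla and Dpt stood at like ratios in both. Of the 3 macrophage partner genes, 2 passed 2-fold beside Lyve1 in RKP (12.9% of all genes did) and 3 in EKP (15.8%). Beside Prox1 0 passed in RKP (19% of all genes) and 0 in EKP (44.7%), and beside Mmrn1 0 passed in RKP (14.9%) and 0 in EKP (50.6%).

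Positions of cells were not analysed here, and the order of barcodes in each file was cut into 10 equal parts as a coarse stand-in. In RKP, Prox1 lay in 1.62% of barcodes of part 4 and 0.314% of part 6, a ratio of 5.14 (4.02 to 6.64). In EKP it lay in 1.05% of part 6 and 0.240% of part 1, a ratio of 4.39 (3.17 to 6.19). Mmrn1 had its extremes in parts 9 and 2 in RKP, a ratio of 6.65, and in parts 6 and 1 in EKP, a ratio of 9.82. Lyve1 spanned a ratio of 2.83 in RKP (parts 4 and 2), near the median of 2.67 over 442 genes, and of 7.92 in EKP (parts 3 and 8), above the EKP median of 3.36 over 475 genes. Median depth ran over 116 to 182 counts between the parts of RKP and over 103 to 172 counts between those of EKP. In barcodes of 80 or more counts the spread of Prox1 was 5.59 in RKP and 1.82 in EKP (1.17 to 2.87), that of Mmrn1 5.88 in RKP and 4.82 in EKP, and that of Lyve1 2.86 in RKP and 8.57 in EKP. The EKP spread of Prox1 at that depth lay below that of the median gene (2.83).

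In RKP, the share of Lyve1 barcodes with Prox1 or Mmrn1 was highest in part 9 at 59.7% and lowest in part 6 at 8.25%. In EKP it was between 0.257% in part 1 and 10.4% in part 6. Lyve1 lay beside Folr2, Mrc1 or Cd209a in 88.9% of its barcodes in part 1 of EKP and in 89.5% in part 3, the 2 parts richest in Lyve1 (6.10% and 6.53% of barcodes), but in 16.7% in part 2. The RKP range for that share was narrower, between 21.5% in part 2 and 56.3% in part 4. In RKP, part 4 held the most with a macrophage gene only (355) and also 251 with Prox1 or Mmrn1. Part 9 held the most with Prox1 or Mmrn1 (345) but 71 with a macrophage gene only, and part 6 held 39 and 197. The 2 kinds thus met in part 4 of RKP but did not run together over its parts. In EKP, parts 3 and 1 held the most with a macrophage gene only (1110 and 1037) and few with Prox1 or Mmrn1 (16 and 3). Across the 10 parts the shares of Prox1 and Mmrn1 had r = 0.95 in RKP and 0.93 in EKP, and in barcodes of 80 or more counts r = 0.95 in RKP and 0.39 in EKP. Those of Lyve1 and Folr2 had r = 0.62 in RKP and 0.94 in EKP, and those of Mmrn1 and Lyve1 r = 0.69 in RKP and -0.47 in EKP. Mmrn1 and Folr2 had r = 0.80 in RKP and -0.55 in EKP. The parts belong to 1 section each, share its depth and have no test. The endothelial Lyve1 barcodes with none of the 5 genes were most frequent in parts 5 and 6 of EKP, with 128 and 138 barcodes, against 29 in part 10.

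**Figure D5:**
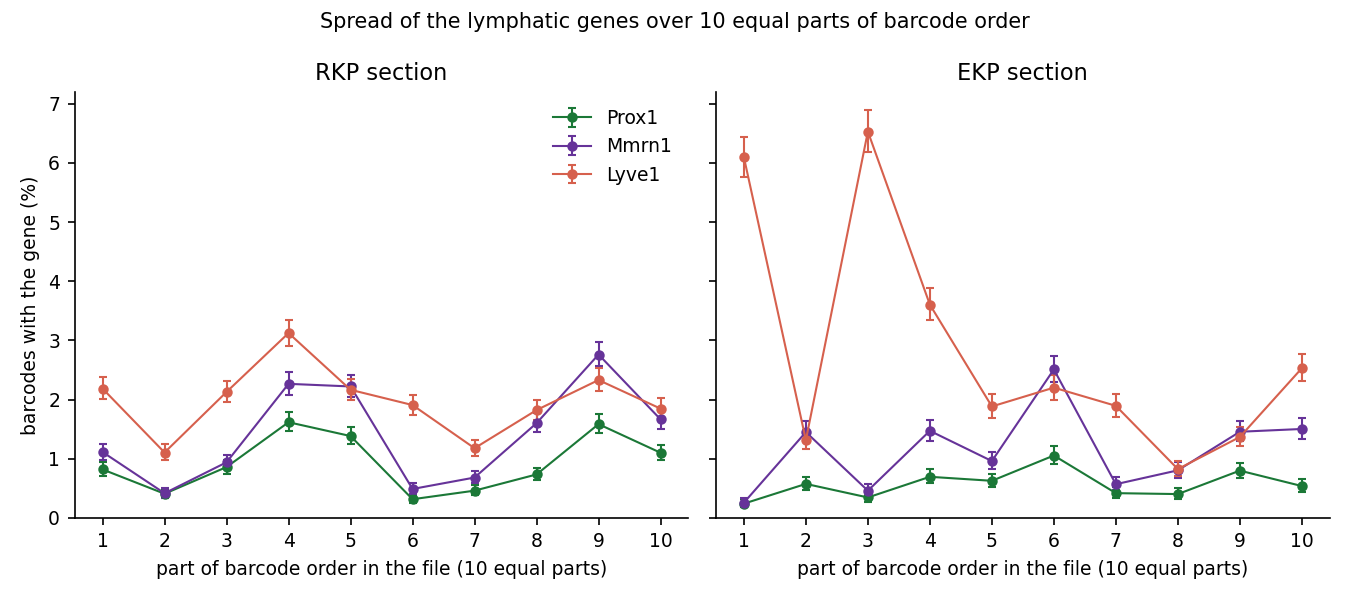
Percent of barcodes (20 or more gene counts) with Prox1, Mmrn1 and Lyve1 in each of 10 equal parts of barcode order, RKP left and EKP right; whiskers are exact binomial 95% intervals. Prox1 and Mmrn1 have r = 0.95 over the parts in RKP and 0.93 in EKP (0.39 in EKP at 80 or more counts), and Lyve1 in EKP peaks at parts 1 and 3 (6.10% and 6.53%), where Prox1 and Mmrn1 are low.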

How the data were processed

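Xenium counts of 1 RKP and 1 EKP section were used as the authors deposited them: raw counts of transcripts per gene and segmented cell, in matrix files with gene and barcode lists. Per the submitters' processing notes Seurat 4.4.0 was used, with no role given. For segmentation, the transcript quality limit and the genome build, no detail is given in the sources used here. Gene counts exclude the 20 negative control probes and other control features, and a gene was compared where its sum in either section lay above the highest control probe. Levels are counts per 1000000 gene counts (CPM), with exact Poisson intervals. Shares carry exact Clopper-Pearson intervals, and ratios of sums carry exact conditional binomial intervals. Barcodes of 20 or more gene counts entered co-detection. Barcodes of 40 or more were also thinned to 40 with a fixed seed. A gate asks for at least 2 different genes of a list, and a barcode can pass several. The likeness list names, for each gene, the 8 genes with the largest smaller ratio over both sections, among genes with 100 or more counts in the barcodes that hold it. Genes of the lymphatic, macrophage partner and endothelial lists may be named too. Doublets were not called. The members and lists were chosen with earlier results of these data known, and the split of Lyve1 barcodes within the endothelial gate was made after its values were seen. The scripts, tested on simulated data, ran in Python 3.11.15 with numpy 2.4.6, scipy 1.17.1, pandas 2.3.3 and matplotlib 3.10.9. Alternatives were another scaling, depth limits, thinning, control subtraction, a stricter gate and a left-out part. Promoter windows are RefSeq's for GRCm38.p6.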

Additional observations from a re-analysis of the deposited data

How the results depend on the processing

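Of the alternative values, 19 kept their main value within its error, 41 moved and 2 reversed; the causes were not tested. The Prox1 log2 ratio of RKP over EKP (0.81) was 1.32 on counts per cell, 1.24 on median-of-ratios scaling, 1.40 at 20 or more counts, 2.31 at 80 or more, and 0.69 without the richest part. The Mmrn1 ratio (0.98) was 1.50, 1.41, 1.55, 2.66 and 0.85 under the same settings and 1.01 after control subtraction, and it passed 2-fold under these except without the richest part. The Lyve1 ratio (-0.43) turned to 0.083 on counts per cell and was -0.0013 on median-of-ratios scaling, -0.33 at 20 or more counts, -0.19 at 80 or more and -0.31 without the richest part. Counts per cell put the median of all genes at 0.08 and raised the genes at least 2-fold higher in RKP to 83, against 39. Mmrn1 beside Prox1 was 52.5% in RKP and 8.76% in EKP after thinning, and 91.2% in RKP and 43.2% in EKP with 2 or more Prox1 counts. Prox1 or Mmrn1 beside Lyve1 was 37.2% in RKP and 2.84% in EKP after thinning, 72.1% in RKP and 4.23% in EKP with 2 or more Lyve1 counts, and in EKP 2.43% at 80 or more counts and 4.25% without the richest part. Folr2, Mrc1 or Cd209a beside Lyve1 was 30.2% in RKP and 63.0% in EKP after thinning, 48.1% in RKP and 88.3% in EKP with 2 or more counts, 40.2% in RKP and 59.1% in EKP without the richest part, 16.6% in RKP and 43.9% in EKP for Folr2 alone, and in EKP 73.3% at 80 or more counts. At that depth the EKP spread over parts was 1.82 for Prox1 and 4.82 for Mmrn1. The Nts log2 ratio (-0.20) turned to 0.43 at that depth. The alternatives on Folr2 alone, on a left-out part and, at 80 or more counts, on lone Prox1 barcodes, the other lymphatic genes and the correlations were chosen after seeing the data. No paired analysis was possible because each line has 1 section and the labels give no replicate numbers. Shallow EKP barcodes limit what Prox1 and Mmrn1 can show there.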
